A study of Mus musculus with 28 samples.

Results

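The circadian clock genes described here are 10 genes that were given as a list by symbol: Arntl (also called Bmal1), Clock, Per1, Per2, Per3, Cry1, Cry2, Nr1d1, Nr1d2 and Dbp. All 10 were matched among the 56748 gene identifiers of the count files, and all 10 passed the filter on low counts in each comparison. They were followed in 28 libraries of total RNA, depleted of ribosomal RNA, from mouse mammary lines. HC11, an untransformed mammary epithelial line used as a model of lactogenic differentiation, gave 10 libraries labelled DOX and 10 labelled DOX + DIP. The mammary cancer line 4T1 gave 8 libraries labelled DOX, so that all 28 libraries share DOX. DOX and DIP are left unexplained by the labels, and for this line DIP is commonly the cocktail of dexamethasone, insulin and prolactin. The series title concerns an antisense transcript of ribosomal DNA called PAPAS, and no library is labelled for it. Each line is 1 line, so that a difference between HC11 and 4T1 cannot be told apart from a difference between cancer and untransformed cells. No harvest time, synchronisation, culture or passage is given in the labels, so that a change in the level of a clock gene and a change in the phase of the clock cannot be told apart in any comparison below. In these bulk libraries fewer cells that express a gene and less RNA per cell cannot be told apart either.

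The mammalian clock is a feedback loop of transcription. ARNTL and CLOCK form a dimer that binds E-box sequences and drives the Per, Cry, Nr1d and Dbp genes. The PER and CRY proteins then inhibit that dimer, while the REV-ERB receptors encoded by Nr1d1 and Nr1d2 repress Arntl at sites that the ROR receptors can activate. DBP, an output of the dimer, binds D-box sequences in competition with the repressor encoded by Nfil3. Most single cells in culture keep such a rhythm, and glucocorticoids, serum and cAMP reset it, in part by inducing Per1 and Per2. In the mammary gland clock gene expression is known to shift between pregnancy and lactation.

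The sequence just before the start site is shown for each member whose promoter held an E-box, an E-prime box or a D-box, the motifs through which the dimer and the D-box factors act. RefSeq's promoter table (GRCm38.p6) matched 9 of the 10 members, all but Per2, with 13 promoters. In each line the 250 bases that end at the start site run 5′ to 3′ on the gene's strand, and capitals mark every match, on either strand, to the motifs named after them.
Per1 (chr11:69098699-69098948, plus strand): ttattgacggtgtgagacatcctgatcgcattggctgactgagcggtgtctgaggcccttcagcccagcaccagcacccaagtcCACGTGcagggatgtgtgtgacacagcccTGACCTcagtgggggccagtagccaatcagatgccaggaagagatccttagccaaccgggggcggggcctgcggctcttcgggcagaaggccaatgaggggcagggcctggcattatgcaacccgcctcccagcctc
Per3 (chr4:151044666-151044915, minus strand): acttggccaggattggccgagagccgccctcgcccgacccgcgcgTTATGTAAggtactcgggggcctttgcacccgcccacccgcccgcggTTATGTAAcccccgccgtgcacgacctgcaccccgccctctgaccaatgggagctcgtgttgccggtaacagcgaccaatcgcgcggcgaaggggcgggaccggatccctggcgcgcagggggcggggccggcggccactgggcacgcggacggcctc
Cry1 (chr10:85185055-85185304, minus strand): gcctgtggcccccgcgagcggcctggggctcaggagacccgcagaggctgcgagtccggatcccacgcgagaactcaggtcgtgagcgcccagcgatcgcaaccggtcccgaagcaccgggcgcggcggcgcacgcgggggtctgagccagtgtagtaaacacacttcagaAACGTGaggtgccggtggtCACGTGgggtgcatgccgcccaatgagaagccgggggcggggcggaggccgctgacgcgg
Cry2 (chr2:92434070-92434319, minus strand): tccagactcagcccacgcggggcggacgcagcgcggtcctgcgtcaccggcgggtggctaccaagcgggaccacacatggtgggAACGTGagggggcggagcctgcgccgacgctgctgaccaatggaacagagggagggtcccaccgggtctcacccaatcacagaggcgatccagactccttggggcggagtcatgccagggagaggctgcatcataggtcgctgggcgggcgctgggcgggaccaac
Nr1d1 (chr11:98775378-98775627, minus strand): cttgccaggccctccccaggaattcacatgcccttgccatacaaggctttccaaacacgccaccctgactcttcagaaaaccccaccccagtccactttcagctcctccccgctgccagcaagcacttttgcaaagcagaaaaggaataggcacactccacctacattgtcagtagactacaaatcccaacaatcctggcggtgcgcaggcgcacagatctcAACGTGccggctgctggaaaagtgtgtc
The E-box CACGTG occurred in the promoters of Per1, where its first base lies 166 bases before the start site, and Cry1, 60 bases before it. It was found in 6.02% of all 32851 promoters searched over the same length. The related E-prime box CACGTT, which does not overlap the E-box matches, was found in Cry1, Cry2 and Nr1d1 and in 3.85% of all promoters. The D-box TTATGTAA occurred at 2 places in the Per3 promoter, 205 and 158 bases before the start site, and in 0.819% of all promoters. The core motif AGGTCA of REV-ERB and ROR receptors was found in 1 promoter each of Clock, Per1 and Nr1d2, and in 14.0% of all promoters. Of the 13 member promoters 0 held TGTTCT, the core of a glucocorticoid receptor site, which 16.1% of all promoters held. The cAMP response element TGACGTCA was likewise in 0 of the 13 and in 1.55% of all promoters. These matches describe the letters in the window and not binding.

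Libraries held between 134117581 and 222065843 counts, and the lowest count of any member in any library was 175. Levels are given as CPM, read counts scaled to library size over all 28 libraries. Comparisons are given as log2 fold changes from edgeR's quasi-likelihood test, with p-values adjusted over all genes tested. The 95% intervals are approximate, since their standard errors were derived from the F statistic of that test. Several libraries stood apart within their groups. HC11 DOX + DIP libraries 8 and 10 had a summed level of 8 glucocorticoid target genes of 195 and 216 CPM. The sum was 943 to 1959 CPM in the other 8 libraries of that group and 244 to 384 in HC11 DOX. Even so, 3 of the 8 genes (Tsc22d3, Zbtb16 and Klf9) lay above every HC11 DOX library in all DIP libraries, including libraries 8 and 10. Calls of members and counts of called genes that change without these libraries are given both ways, as are some of the sizes. In HC11 DOX library 5 the deviation of a gene from its group mean was related to the GC content of its transcript (Spearman's rho of 0.57 across 13886 genes, which are not independent), against -0.28 to 0.02 in the other 9. Markers fixed for mammary epithelium were detected in every library (8 of 8 genes), with summed levels of 3511 to 8020 CPM in HC11 DOX, 471 to 2316 with DIP and 3047 to 4347 in 4T1. Of 6 leukocyte markers, Cd68 accounted for most of summed levels of 1.90 to 12.8 CPM, and Ptprc reached at most 0.0606 CPM in any library. Summed endothelial markers lay between 0.113 and 5.29 CPM, mostly from Pecam1, with Cdh5, Kdr and Tek below 0.1 CPM. Fibroblast and adipocyte markers ranged from 32.9 to 74.2 CPM in HC11 DOX, from 2.91 to 241 with DIP (lowest in library 8, as was the epithelial sum) and from 9.39 to 15.6 in 4T1, with Adipoq at or near 0. The part of these markers in the results was not tested.

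Per kilobase of exon the REV-ERB genes had the highest mean levels of the members in HC11 DOX and in 4T1, and the order differed between groups. In HC11 DOX the mean level per kilobase was highest for Nr1d1, at 13.0 ± 5.92 CPM per kb (SD, n = 10), and Nr1d2, at 10.2 ± 2.56. Clock followed at 6.92 ± 2.17, then Per1 at 5.52, Dbp at 5.39 ± 4.16 and Cry1 at 4.83 ± 0.853, neighbours that lay within each other's spread. Per2 (3.08 ± 0.577), Per3 (2.62 ± 1.33), Cry2 (1.70 ± 0.270) and Arntl (1.54 ± 0.394) were the lowest. With DIP, Per1 moved up to 23.5 ± 4.79 CPM per kb, beside Nr1d1 at 26.4 ± 28.2 and above Nr1d2 at 14.3 ± 6.57. The Nr1d1 mean rests on libraries 8 and 10, and in each of the other 8 Per1 was higher than Nr1d1 per kilobase. In 4T1 the order was Nr1d2 (6.95 ± 0.516 CPM per kb, n = 8), Nr1d1 (4.53 ± 0.925) and Cry1 (3.43 ± 0.483), with Per1 (2.10 ± 0.286) and Clock (2.02 ± 0.322) alike within their spread. Arntl (1.34 ± 0.186) and Cry2 (1.74 ± 0.103) thus stood above Dbp (0.798 ± 0.693), Per3 (0.630 ± 0.253) and Per2 (0.434 ± 0.104) in 4T1. Of the 3 Period genes Per1 was highest in each group. With DIP, Per2 (7.72 ± 0.916) stood above Per3 (3.03 ± 1.16). In HC11 DOX and in 4T1 both lay within each other's spread, and their order depends on the length used. Exon length here merges all annotated exons of a gene, 9608 bases for Per3 against 5999 in its longest transcript. Without scaling by length the mean of Per3 was above that of Per2 in HC11 DOX, at 25.1 and 18.0 CPM.

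**Figure D1:**
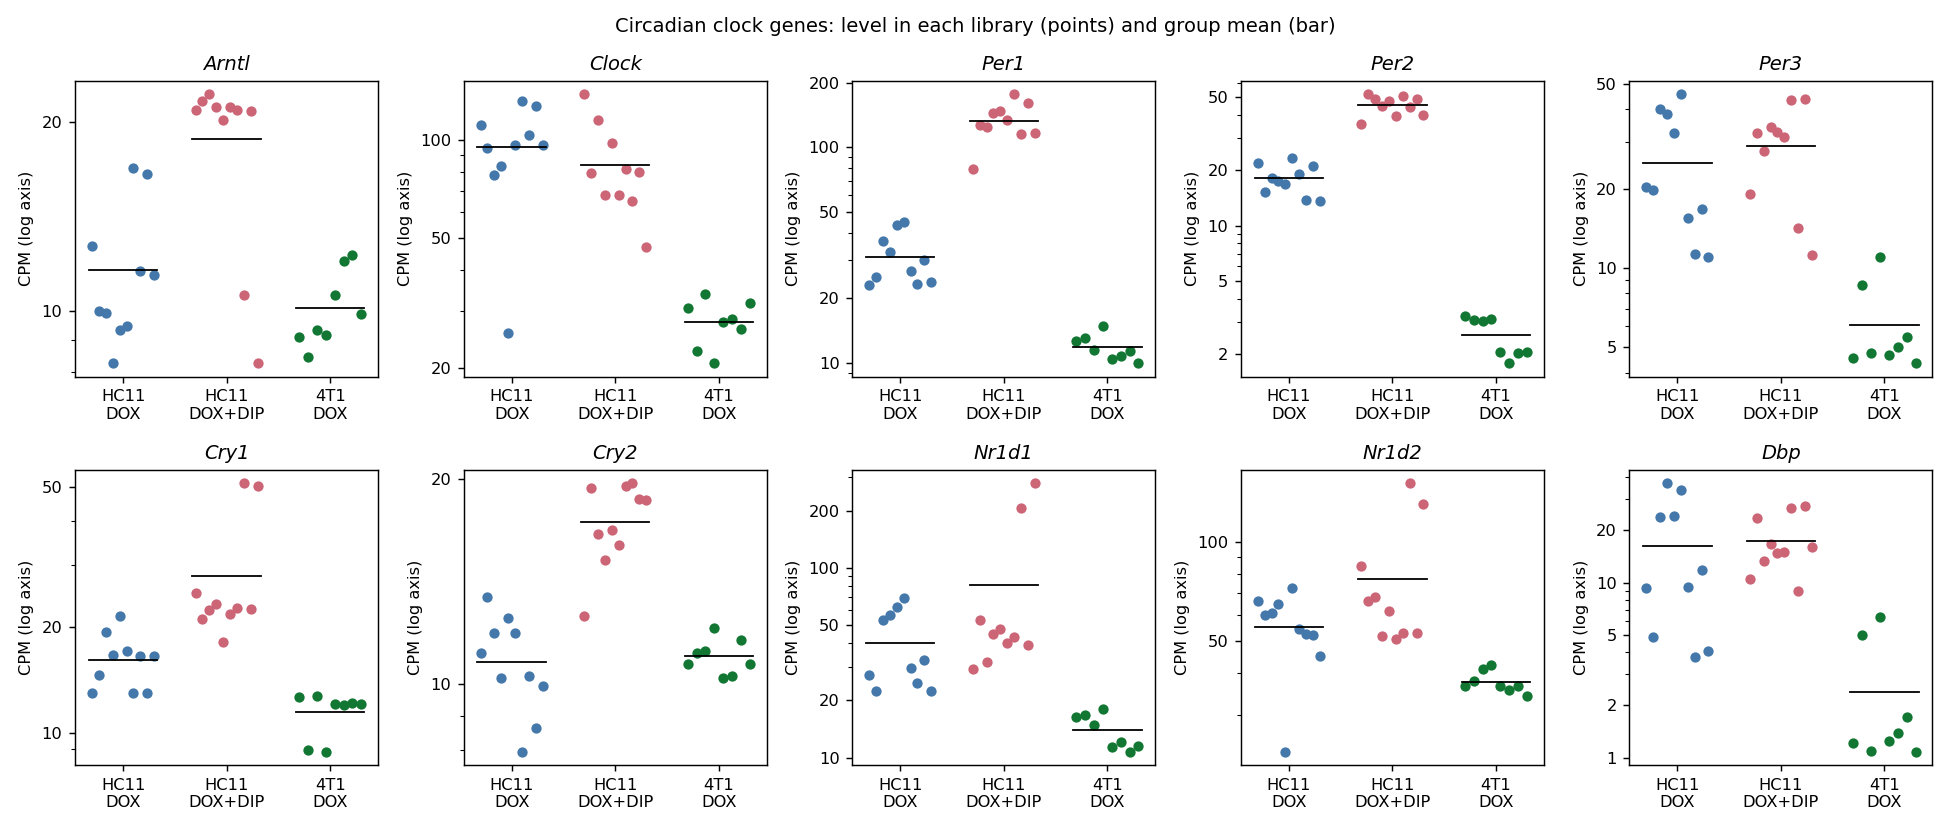
Level of each clock gene in CPM (log axis) in every library (points) of HC11 DOX, HC11 DOX + DIP and 4T1 DOX, with the group mean as a bar. Per1 lies between 22.9 and 45.3 CPM in HC11 DOX, between 79.5 and 176 with DIP and between 9.98 and 14.9 in 4T1, and Nr1d1 reaches 206 and 279 in only 2 libraries with DIP.

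The comparison of HC11 DOX + DIP with HC11 DOX asks how the clock genes differ in HC11 cells whose label adds DIP. Per1 and Per2 rose in every DIP library. Arntl, Cry1, Cry2 and Nr1d1 rose by less and overlapped between the groups, while Clock, Per3, Nr1d2 and Dbp did not pass the test. The count was 6 of 10 higher and 0 lower, against a background of 24.5% of the 23829 genes tested called higher and 21.0% called lower. The median log2 fold change of the 10 members was 0.71, and that of all genes tested 0.06. Without DIP libraries 8 and 10 the count was 5 higher, with 27.0% of all genes called higher, and the median 0.45.

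Per1, an inhibitor of the ARNTL and CLOCK dimer and an immediate early gene of clock resetting, had a lowest, median and highest level of 22.9, 28.4 and 45.3 CPM in HC11 DOX and of 79.5, 130.2 and 176 CPM with DIP. The lowest DIP library, number 1, thus lay above every DOX library. The log2 fold change was 2.12 (95% interval 1.78 to 2.45), a 4.33-fold rise with an adjusted p of 5.83e-10. Per2, the second inhibitor, ran from 13.6 over 17.7 to 23.3 CPM in HC11 DOX and from 35.7 over 46.3 to 51.8 with DIP. Again the groups did not overlap, and Per2 was 2.54-fold higher (log2 fold change 1.35, interval 1.11 to 1.58, adjusted p = 3.08e-09). These are 2 of 10 members whose DIP libraries all lay above all DOX libraries, against 4.69% of all genes tested. In libraries 8 and 10 the summed glucocorticoid targets were below those of every HC11 DOX library. The target Tsc22d3 was nevertheless above all of them there, at 35.4 to 48.0 CPM against at most 28.8 in HC11 DOX. In the same libraries 8 and 10, Per1 stood at 115 and 117 CPM and Per2 at 44.0 and 40.2 CPM, both within the range of the other DIP libraries. Without those 2 libraries Per1 had a log2 fold change of 2.16 and Per2 of 1.37. Per3, the remaining Period gene, spread from 11.0 to 45.6 CPM in HC11 DOX and from 11.2 to 43.8 with DIP, with medians of 20.1 and 32.1 CPM. Its groups overlapped almost wholly, and the log2 fold change of 0.23 had an interval from -0.37 to 0.84 (adjusted p = 0.544).

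The Cryptochrome genes encode the partners of the PER proteins in the inhibitory complex. Cry2 ranged from 7.96 to 13.4 CPM (median 10.7) in HC11 DOX and from 12.6 to 19.7 (median 17.7) with DIP. Only DIP library 1, at 12.6 CPM, lay within the DOX range, and Cry2 rose 1.63-fold (log2 fold change 0.71, interval 0.48 to 0.93, adjusted p = 1.93e-05). Cry1 ranged from 13.0 to 21.5 CPM (median 16.6) in HC11 DOX and from 18.2 to 51.4 (median 22.6) with DIP. Libraries 8 and 10 held 51.4 and 50.6 CPM and the other 8 DIP libraries 18.2 to 25.1. Cry1 rose 1.75-fold over all libraries (log2 fold change 0.81, interval 0.42 to 1.20, adjusted p = 0.00120), and the log2 fold change without libraries 8 and 10 was 0.47 (adjusted p = 0.000547).

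Among the activators, Arntl had a lowest, median and highest level of 8.27, 10.7 and 16.9 CPM in HC11 DOX and of 8.28, 20.9 and 22.1 CPM with DIP. The 8 DIP libraries other than 8 and 10 lay in a narrow band of 20.1 to 22.1 CPM, above every DOX library, whereas library 10 held 8.28 and library 8 held 10.6 CPM. Arntl rose 1.64-fold (log2 fold change 0.71, interval 0.34 to 1.09, adjusted p = 0.00261) and 1.84-fold without those libraries. Clock, the partner of ARNTL, ran from 25.7 over 96.9 to 132 CPM in HC11 DOX and from 46.9 over 79.5 to 138 with DIP. The groups overlapped, and the log2 fold change was -0.16 (interval -0.61 to 0.29, adjusted p = 0.589). The members of the activating dimer therefore had separate values, a rise for Arntl and no call for Clock. A test of that difference was not run.

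Nr1d1, which encodes the repressor REV-ERBα, ranged from 22.4 to 69.5 CPM (median 31.1) in HC11 DOX and from 29.2 to 279 (median 43.9) with DIP. Its 2.06-fold rise (log2 fold change 1.04, interval 0.17 to 1.91, adjusted p = 0.0472) rested on libraries 8 and 10, at 206 and 279 CPM. The other 8 DIP libraries, at 29.2 to 53.0 CPM, lay within the DOX range, and without libraries 8 and 10 the log2 fold change was 0.06 (adjusted p = 0.849). Its paralog Nr1d2 ranged from 23.1 to 72.6 CPM (median 57.2) and from 50.7 to 151 (median 63.9) with DIP. Libraries 8 and 10 were again the highest, at 131 to 151 CPM, and Nr1d2 did not pass the test (log2 fold change 0.50, interval 0.05 to 0.95, adjusted p = 0.0664, and 0.16 with an adjusted p of 0.421 without them). Dbp, the D-box activator at the output of the loop, ran from 3.74 over 10.6 to 36.9 CPM in HC11 DOX and from 8.96 over 15.4 to 27.5 with DIP. The DOX libraries reached both below and above the DIP libraries, and the log2 fold change of 0.12 had an interval from -0.69 to 0.92 (adjusted p = 0.834).

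**Figure D2:**
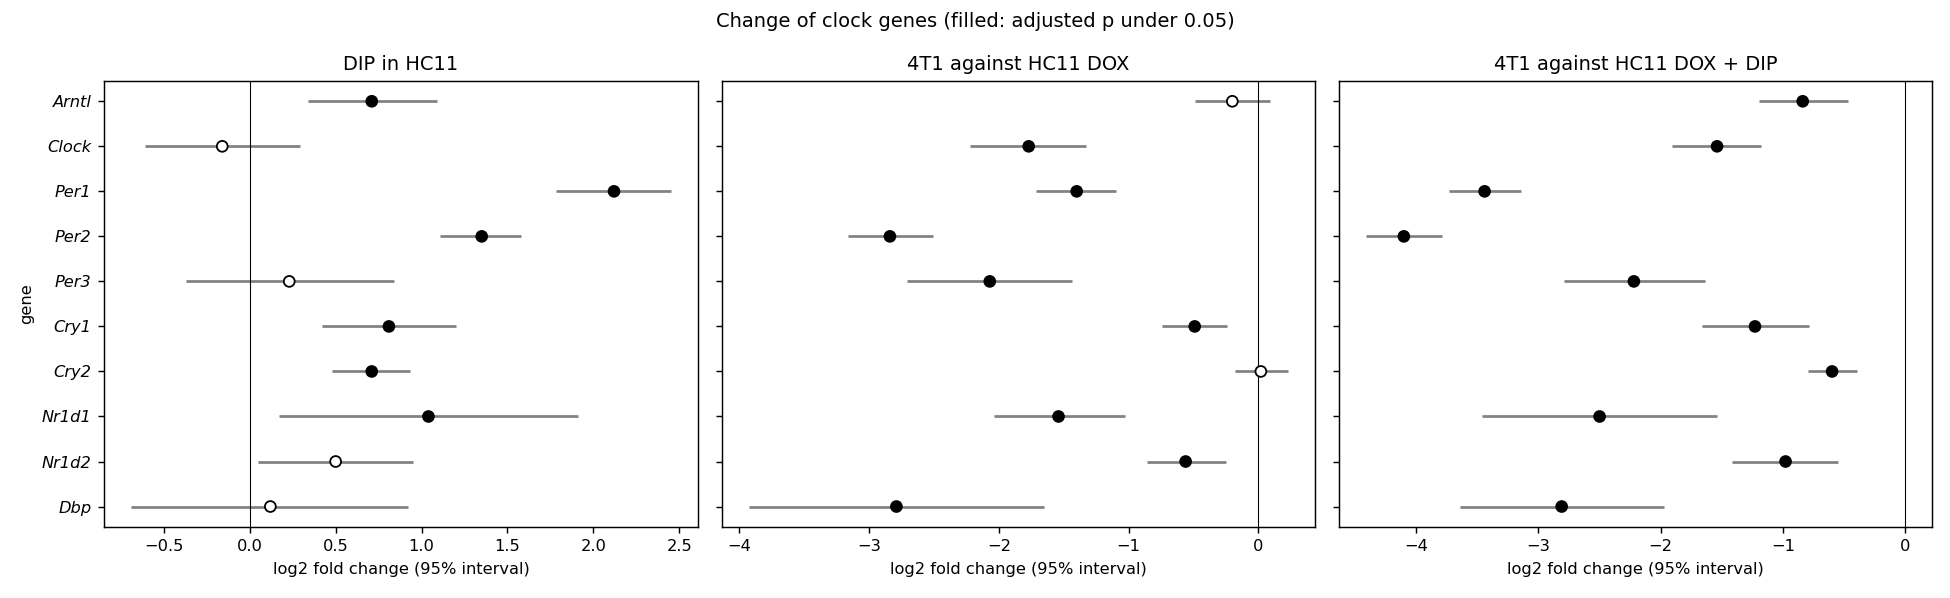
Log2 fold change of each clock gene (points) with its 95% interval (lines) in the 3 comparisons, where filled points have an adjusted p under 0.05 and each panel has its own axis. Per1 and Per2 are highest in the DIP comparison, at 2.12 and 1.35, and Per2 is lowest in both 4T1 comparisons, at -2.84 and -4.10.

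The comparison of 4T1 with HC11 DOX asks how the cancer line differs from untransformed cells under the same DOX label. Of the 10 members 8 were lower in 4T1 and 0 higher, against 35.6% of the 23875 genes tested called lower and 34.3% called higher. The largest falls were those of Per2, Dbp and Per3. Arntl and Cry2 did not pass the test. The median log2 fold change was -1.47 for the members and -0.01 for all genes tested. In 5 members, Per1, Per2, Per3, Cry1 and Nr1d1, all 4T1 libraries lay below all HC11 DOX libraries, which was so for 17.8% of all genes tested.

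Per2 held 3.21, 3.07, 3.04, 3.10, 2.05, 1.78, 2.02 and 2.05 CPM in 4T1 libraries 1 to 8, and at least 13.6 CPM in HC11 DOX. It was 7.14-fold lower in 4T1 (log2 fold change -2.84, interval -3.16 to -2.51, adjusted p = 3.64e-12). Dbp held 1.08 to 1.72 CPM in 6 of the 4T1 libraries and 5.04 and 6.33 CPM in libraries 2 and 4, which reached above the lowest HC11 DOX libraries. Its log2 fold change was -2.79 (interval -3.93 to -1.65, adjusted p = 0.000134), with the widest interval of the members. Per3 showed the same libraries on top, 8.64 and 11.0 CPM in libraries 2 and 4 against 4.34 to 5.46 in the others. It was 4.21-fold lower (log2 fold change -2.07, interval -2.71 to -1.44), and its highest 4T1 library and lowest HC11 DOX library were equal at 3 digits, 11.0 CPM. Per1 ran from 9.98 over 11.4 to 14.9 CPM in 4T1, below the 22.9 CPM of the lowest DOX library, and was 2.64-fold lower (log2 fold change -1.40, adjusted p = 4.87e-08).

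Clock ranged from 20.7 to 33.7 CPM in 4T1, below 9 of the 10 HC11 DOX libraries. Library 5 of HC11 DOX, at 25.7 CPM, lay within the 4T1 range. The log2 fold change of Clock was -1.77 (interval -2.22 to -1.33, adjusted p = 3.14e-07) with that library. Arntl, at 8.47 to 12.3 CPM (median 9.63) in 4T1, overlapped HC11 DOX (log2 fold change -0.20, interval -0.49 to 0.09, adjusted p = 0.205). Cry2 was the member most alike in both lines, with 10.2 to 12.1 CPM (median 10.9) in 4T1 and 7.96 to 13.4 (median 10.7) in HC11 DOX, and a log2 fold change of 0.02 (interval -0.18 to 0.23). Cry1, at 8.85 to 12.8 CPM in 4T1, was 1.41-fold lower (log2 fold change -0.49, adjusted p = 0.00109), with its highest 4T1 library just below the lowest DOX library at 13.0 CPM. Nr1d1 ranged from 10.7 to 18.0 CPM (median 13.4) in 4T1 and was 2.90-fold lower (log2 fold change -1.54, interval -2.04 to -1.03). Nr1d2 ranged from 34.2 to 42.4 CPM (median 36.6) and was 1.47-fold lower (log2 fold change -0.56, adjusted p = 0.00210). HC11 DOX library 5, at 23.1 CPM, lay below every 4T1 library, and the other HC11 DOX libraries, at 45.1 CPM or more, lay above all of them.

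Against HC11 DOX + DIP, all 10 members were lower in 4T1 and 0 higher, with 37.9% of the 24132 genes tested called lower and 35.9% called higher. The median log2 fold change was -1.88 for the members and -0.04 for all genes. Any pair of the 3 comparisons shares a group of libraries, so they are not independent of each other. Per2 was 17.2-fold lower (log2 fold change -4.10, interval -4.41 to -3.79, adjusted p = 1.71e-14) and Per1 10.8-fold lower (log2 fold change -3.44, interval -3.73 to -3.14, adjusted p = 1.04e-13). Dbp (log2 fold change -2.81), Nr1d1 (-2.50), Per3 (-2.22) and Clock (-1.54) were next in size. Cry1 (-1.23), Nr1d2 (-0.98), Arntl (-0.84) and Cry2 (-0.60) fell least. In 9 members the groups did not overlap, against 18.7% of all genes tested, and Arntl was the exception, through DIP libraries 8 and 10. Without those libraries all 10 members remained lower, with 40.3% of all genes called lower, and the log2 fold change was -1.07 for Arntl and -1.58 for Nr1d1.

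The members also varied within groups, and some sets of libraries were high or low in several members at once. Libraries 3 to 6 of HC11 DOX were higher than the other 6 in Nr1d1 (53.1 to 69.5 CPM against 22.4 to 32.8), Dbp (23.7 to 36.9 against 3.74 to 11.8), Per3 (32.5 to 45.6 against 11.0 to 20.3) and Per1 (32.8 to 45.3 against 22.9 to 30.0). In Arntl they were lower, at 8.27 to 9.94 CPM, with the others all higher and up to 16.9. These sets were seen in the data and are no groups of the study, so no test was made between them. The share of all genes that separates them in the same way was not computed. The split is therefore not read as particular to the clock genes. The ratio of Nr1d1 to Arntl in CPM, used only between libraries, was 5.34 to 7.32 in libraries 3 to 6, 1.74 to 2.24 in the other HC11 DOX libraries and 0.868 to 1.97 in 4T1. With DIP it was 1.40 to 2.45 in 8 libraries and reached 19.4 in library 8 and 33.7 in library 10. Tef, a relative of Dbp that binds the same D-box, was also higher in HC11 DOX libraries 3 to 6 (89.5 to 109.7 CPM against 54.2 to 77.0). The proliferation marker Mki67 was lower there, at 88.6 to 269 CPM against 284 to 396, and Thra, whose exons overlap those of Nr1d1 on the other strand, was higher, at 53.1 to 67.3 against 19.6 to 32.5 CPM. The part of these genes in the pattern was not tested.

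**Figure D3:**
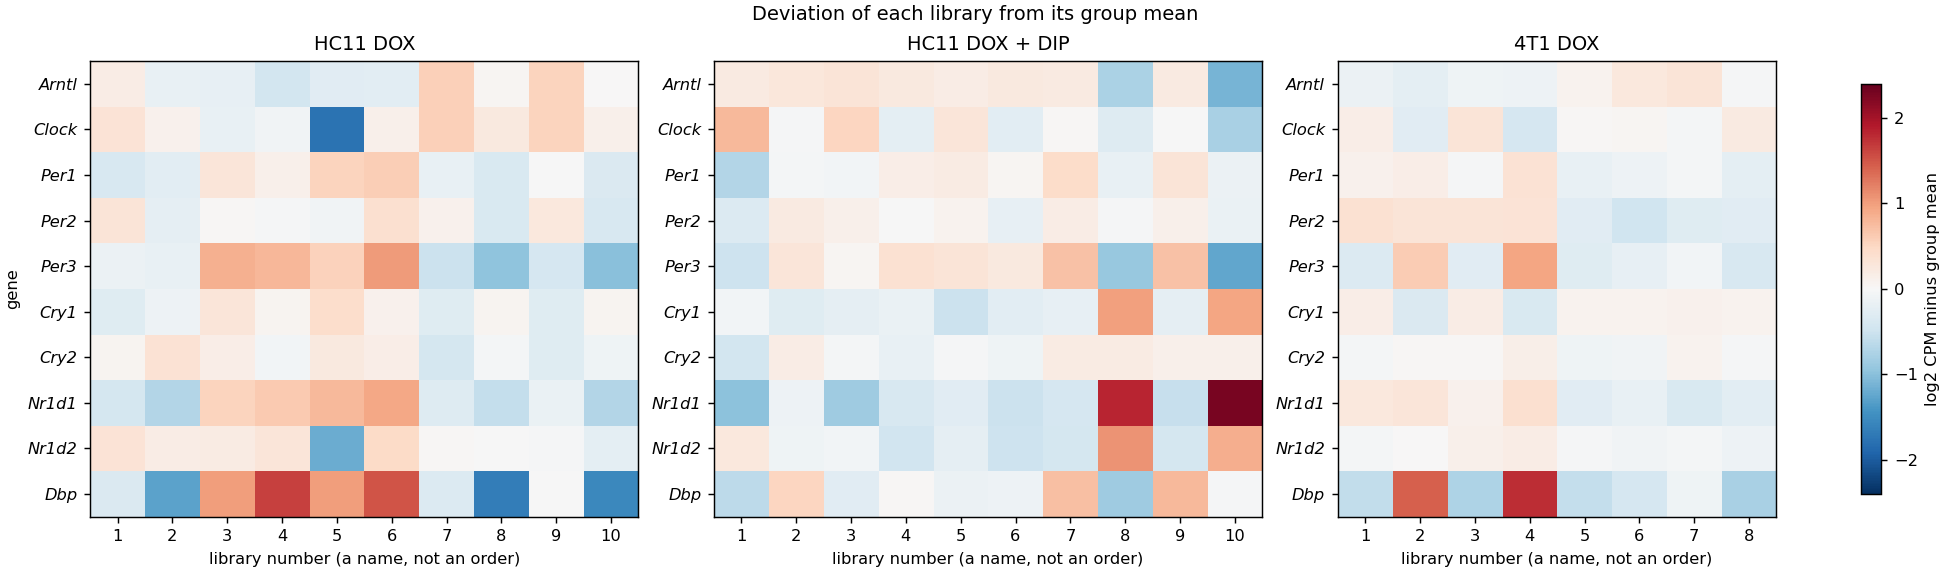
Deviation of each clock gene (rows) from its group mean in log2 CPM in each library (columns, numbered as names), red above and blue below the mean. In HC11 DOX, Nr1d1, Dbp and Per3 are red in libraries 3 to 6. With DIP, libraries 8 and 10 are red in Nr1d1, Nr1d2 and Cry1 and blue in Arntl and Per3. In 4T1, libraries 2 and 4 are red in Dbp and Per3.

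DIP libraries 8 and 10 differed from the other 8 in most members. The share of all genes that separates these libraries in the same way was not computed. The difference is therefore not read as particular to the clock genes. Libraries 8 and 10 were lower in Arntl (8.28 to 10.6 CPM against 20.1 to 22.1), Clock (46.9 to 65.0 against 67.8 to 138) and Per3 (11.2 to 14.2 against 19.1 to 43.8). Nr1d1, Nr1d2 and Cry1 were higher in them, as given above, and so was Ciart, a repressor of the dimer, at 38.5 to 44.8 CPM against 6.45 to 18.8. Thra held 37.0 and 54.6 CPM in them and 20.0 to 43.2 CPM in the others, a smaller difference than that of Nr1d1. Their Mki67 levels, 8.82 to 10.1 CPM, lay within the 3.22 to 27.9 CPM of the others. Among 4T1 libraries, numbers 2 and 4 were higher than the other 6 in Dbp and Per3 and lower in Cry1 (8.85 and 8.97 CPM against 12.0 to 12.8) and Clock (20.7 to 22.6 against 26.4 to 33.7). Libraries 1 to 4 were above 5 to 8 in Per2 (3.04 to 3.21 against 1.78 to 2.05 CPM) and Nr1d1 (14.8 to 18.0 against 10.7 to 12.1) and below them in Arntl (8.47 to 9.35 against 9.92 to 12.3). For the 4T1 sets the share of all genes was not computed either.

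Base composition and length moved with some of these deviations. Clock and Nr1d2 have the lowest GC content of the members, 40.9% and 41.8% over the longest annotated transcript, and both were lowest in HC11 DOX library 5, the library in which GC-rich genes stood high. Without that library Clock had a log2 fold change of -1.92 and Nr1d2 of -0.68 in 4T1 against HC11 DOX. DIP library 1 showed the opposite relation (rho of -0.43 with GC content), and in it Per1, with 59.4% GC, was lowest and Clock highest of the DIP libraries. In 4T1 libraries 2 and 4 the deviations fell with transcript length (rho of -0.40 and -0.26), and Dbp, the shortest member at 1837 bases, was high while Clock, the longest at 9744 bases, was low. Per3, however, was high in the same libraries at a length of 5999 bases. In HC11 DOX library 6 deviations rose with length (rho of 0.42), while Dbp stood 1.51 above its group mean in log2 CPM and Clock 0.13. In HC11 DOX libraries 3 and 4 the relation to length was 0.18 and -0.05 and that to GC content -0.12 and -0.10. In DIP libraries 8 and 10 the relation to GC content was -0.14 and -0.07 and that to length 0.07 and -0.19. The part of base composition and length in the levels was not tested.

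The spread between libraries differed between members. Dbp had an SD of log2 CPM of 1.25 in HC11 DOX, larger than in 99.4% of the 14148 genes whose log2 CPM averaged 1 or more, and of 1.02 in 4T1, larger than in 98.1%. Per3 followed with 0.76 in HC11 DOX (95.4%) and 0.49 in 4T1 (93.1%). Nr1d1 was the most variable member with DIP, at 1.12. Per2 and Cry2 were the steadiest with DIP, at 0.18 and 0.21, where only 7.77% and 12.2% of genes had a smaller spread.

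Likeness between genes was described by Pearson's r of deviations from the group mean over the 28 libraries, across 10748 named genes and with no test. The points share libraries and hence depth and base composition. The members closest to Dbp were Per3 (r of 0.84) and Per1 (0.77), and the 5 closest of all genes were Sirt3 (0.93), Zfp688 (0.92), Nicn1 (0.91), Neil1 (0.91) and Hdac11 (0.90). For Per1 they were Trerf1, March9, St6galnac6 (0.89 each), Dhx34 and Lamc1 (0.88 each). Arntl was closest to Gbe1 (0.92), the heat shock genes Hspa1a and Hspa1b (0.90 each, near-identical copies whose counts are uncertain), Slc52a2 and Mpdu1 (0.88 each), and it was opposed to Nr1d1 (-0.84) and Cry1 (-0.77). Without DIP libraries 8 and 10 these 2 values were -0.55 and -0.36. Those of the 5 closest genes, in the order given, were then 0.80, 0.72, 0.73, 0.69 and 0.73. Nr1d1 was closest to Cfap20 (0.92), Cnot8, Usb1, Kat8 and Hmbox1 (0.90 each). Without DIP libraries 8 and 10 its values with these were 0.77, 0.73, 0.68, 0.76 and 0.84. Its r with Dbp was 0.35 over all libraries and 0.83 without DIP libraries 8 and 10, and with Per3 -0.04 and 0.82.

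Relations between 3 pairs of genes were computed within groups, and within sets of at least 6 libraries where a group fell into separate sets. The sets were chosen after the values were seen, in part by the levels of the genes related here. The permutation p-values do not allow for that choice. Per1 and Tsc22d3 kept all 10 HC11 DOX libraries, although Per1 too was higher in libraries 3 to 6. Of the 7 relations computed, 0 passed an adjusted p of 0.05 in the permutation test of r, and 3 had an unadjusted p under it. Nr1d1 and Dbp had r of 0.90 and Spearman's rho of 0.77 over 6 HC11 DOX libraries (exact permutation p of 0.0347 and 0.103, adjusted 0.0810 and 0.240). With 2 libraries left out r was 0.88 over only 4 libraries (exact permutation p of 0.250, adjusted 0.583). Over 8 DIP libraries r was 0.60 and rho 0.40 (exact permutation p of 0.122 and 0.327, adjusted 0.143 and 0.381). Arntl and its repressor Nr1d1 had r of 0.93 and rho of 0.94 over the same 6 HC11 DOX libraries (exact permutation p of 0.0111 and 0.0167, adjusted 0.0778 and 0.117), and r of -0.21 and rho of 0.00 over 8 DIP libraries (exact permutation p of 0.626 and 1.00). The sign over these 6 HC11 DOX libraries is the opposite of that between the sets of libraries given above. Per1 and the glucocorticoid target Tsc22d3 had r of 0.55 over 10 HC11 DOX libraries and 0.68 over 8 4T1 libraries (permutation p of 0.0977 and 0.0643, adjusted 0.137 and 0.113), with rho of 0.61 and 0.52 (permutation p of 0.0663 and 0.197, adjusted 0.232 and 0.275). Over 8 DIP libraries r was 0.88 and rho 0.52 (exact permutation p of 0.0321 and 0.197, adjusted 0.0810 and 0.275). With the 2 libraries farthest from the median left out, these 3 fell to 0.25, 0.29 and -0.03, so that they rest on those libraries.

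The other genes of the pathway place these values. The ROR receptors are the activating counterparts of the REV-ERB repressors at the Arntl gene. Rora held 0.731 to 7.23 CPM in HC11 DOX and 7.85 to 24.8 CPM with DIP, a rise without overlap (log2 fold change 2.44, adjusted p = 1.62e-05). In 4T1 it was almost absent, with 96 counts over 8 libraries and 1 library at 0, and was lower than in both HC11 groups (fitted log2 fold changes of -5.36 and -7.72, which depend on the prior count). Rorb stayed below 0.8 CPM throughout. Its log2 fold changes were -0.26 (adjusted p = 0.701), -1.12 (0.0475) and -0.77 (0.159) with DIP, in 4T1 against HC11 DOX and in 4T1 against DIP.

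All 3 other D-box factors were called in every comparison, where calls were common among all genes tested. The shares called higher and lower were 24.5% and 21.0% with DIP and 34.3% and 35.6% in 4T1 against HC11 DOX. Against DIP they were 35.9% and 37.9%, so the count of 3 is not read as a result about these factors. Nfil3, the D-box repressor, held 7.49 to 15.2 CPM in HC11 DOX and 52.6 to 90.1 CPM with DIP, and rose 6.03-fold (log2 change 2.59, adjusted p = 4.86e-12), and 4T1, at 28.8 to 37.1 CPM, lay between the HC11 groups (1.57 and -0.95). Tef rose with DIP (0.95) and was lower in 4T1 (-1.87 and -2.74), and Hlf was lower with DIP (-0.96) and in 4T1 (-5.20 and -4.16), where it held 0.0939 to 1.47 CPM. Among the activators' paralogs, Arntl2 fell with DIP (-0.70) and was higher in 4T1 (1.06 and 1.84), the opposite direction to Arntl with DIP and in 4T1 against DIP. Npas2, a paralog of Clock, rose with DIP (1.80, and 1.03 with an adjusted p of 0.0411 without libraries 8 and 10) at levels of at most 0.399 CPM, reached in library 10, and was too low to be tested in 4T1. Of the other repressors, Ciart (1.34, and 0.77 without libraries 8 and 10) and Bhlhe41 (1.03) rose with DIP and Bhlhe40 did not pass (0.15, adjusted p = 0.792). Timeless, which acts mainly in DNA replication, fell 10.6-fold with DIP (-3.41), as did all 6 cycling-cell genes (median -4.64). In 4T1 against HC11 DOX, Bhlhe41 was lower (-1.55), Bhlhe40 (0.47) and Timeless (0.31) were higher and Ciart was not called (0.03, adjusted p = 0.893). Against DIP, Timeless was higher (3.79), Bhlhe41 (-2.49) and Ciart (-1.24) were lower and Bhlhe40 was not called (0.41, adjusted p = 0.380).

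**Figure D4:**
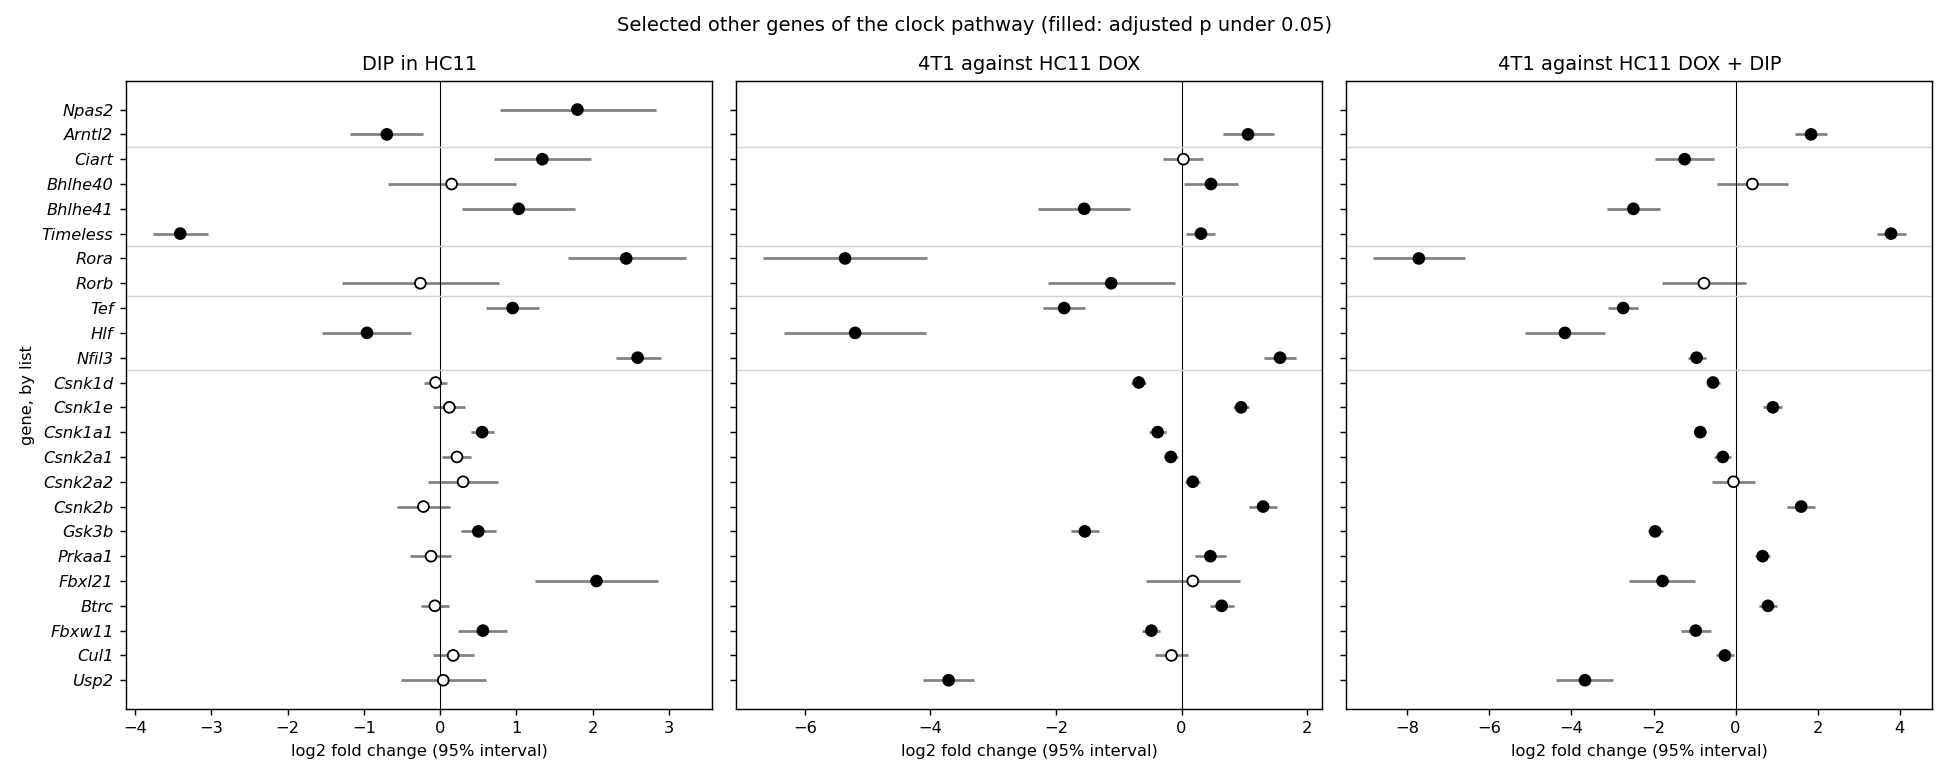
Log2 fold change (points) and 95% interval (lines) of selected other clock pathway genes in the 3 comparisons, in lists divided by grey lines (activators and paralogs, repressors, ROR receptors, D-box factors, kinases and ligases), filled where the adjusted p is under 0.05. Rora is highest with DIP after Nfil3, at 2.44 and 2.59, and lowest of all in both 4T1 comparisons, at -5.36 and -7.72.

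The enzymes that set the stability of clock proteins moved less with DIP. Of 14 kinases and ligases tested (of 15 listed) 5 rose and 0 fell (median 0.19), among them the CRY ligase gene Fbxl21 (2.05, at no more than 0.953 CPM) and the PER ligase gene Fbxw11 (0.56). Without DIP libraries 8 and 10, 5 rose and 2 fell. In 4T1 against HC11 DOX 5 were higher and 6 lower (median 0.01), led by Usp2 (-3.71), a deubiquitinase with a rhythmic transcript, Gsk3b (-1.54) and Csnk2b (1.30). Against DIP 4 were higher and 9 lower (median -0.32, and 5 and 9 without libraries 8 and 10), led by Usp2 (-3.67), Gsk3b (-1.96) and Fbxl21 (-1.78). Of 10 complex cofactors, 1 rose and 3 fell with DIP (median 0.08), with the paraspeckle proteins Sfpq (-0.76) and Nono (-0.71) lower and Kat2b (0.72) higher. Without libraries 8 and 10, 1 rose and 4 fell (median -0.05), and Wdr5 moved from 0.03 to -0.68. In 4T1, 5 cofactors were higher and 4 lower in each comparison (6 and 4 against DIP without libraries 8 and 10). Among them were the acetyltransferase genes Crebbp (-0.96) and Ep300 (-0.70), and Ddb1 (0.69), against HC11 DOX, and Nono (1.21), Kat2b (-1.16) and Crebbp (-1.09) against DIP. Of 9 clock-controlled outputs tested, 2 rose with DIP, Nampt (0.55) and Alas1 (0.35). Without libraries 8 and 10, 4 rose and 1, Noct, fell (-0.92, adjusted p = 4.31e-08, against -0.48 and 0.0693 with them). In 4T1 5 were higher and 3 lower against HC11 DOX, led by Cdkn1a (-2.64), Noct (1.05) and Alas1 (0.64), and 3 higher and 3 lower against DIP (2 and 3 without libraries 8 and 10), led by Cdkn1a (-2.85), Noct (1.60) and Tns2 (-1.10). The outputs' medians were 0.14, 0.26 and 0.21 in the 3 comparisons, beside 0.06, -0.01 and -0.04 for all genes. Over all genes tested, 24.5% were called higher and 21.0% lower with DIP, 34.3% and 35.6% in 4T1 against HC11 DOX, and 35.9% and 37.9% against DIP. The 4T1 counts of the kinases and ligases, cofactors and outputs against HC11 DOX lie within 2 genes of these shares, and nothing is read from them about the lists.

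Target genes of signals known to reset the clock, and cycling-cell genes, are given with the same shares of all genes as background. Their RNA levels do not measure the signals themselves. Of 8 glucocorticoid targets 7 rose with DIP (median 2.08, and 2.30 without libraries 8 and 10), led by Tsc22d3 (3.93) and Fkbp5 (2.73). Zbtb16 held 6 counts in all 10 HC11 DOX libraries together and 28 to 1106 counts per DIP library, and 12 in all 8 4T1 libraries. In 4T1, against HC11 DOX, 2 of 7 tested were higher and 4 lower, led by Cebpd (-3.07), Errfi1 (1.82) and Fkbp5 (1.40), and against DIP 0 were higher and 6 of 8 lower, led by Zbtb16, Tsc22d3 (-4.52) and Cebpd (-4.31). Against DIP without libraries 8 and 10, 0 of these targets were higher and 7 of 8 lower. Of 8 immediate early and cAMP-induced genes 5 rose and 1 fell with DIP, led by Atf3 (3.85), Sik1 (1.32) and Fos (1.11). In 4T1 2 were higher and 1 lower against HC11 DOX, led by Fos (-3.57), Fosb (4.01-fold higher) and Crem (0.31), and 2 higher and 3 lower against DIP, led by Fos (-4.60), Atf3 (-3.45) and Fosb (2.31). The cycling-cell genes fell with DIP in 6 of 6, led by Aurkb (-4.80), Mki67 (-4.73) and Ccnb1 (-4.67), and were higher in 4T1 in 5 of 6 against HC11 DOX, led by Cdk1 (0.57), Mki67 (0.56) and Ccnb1 (0.48), and in 6 of 6 against DIP, led by Mki67 (5.36), Ccnb1 (5.22) and Birc5 (5.02). Their summed level was 809 to 1524 CPM in HC11 DOX, 18.0 to 148 with DIP and 1590 to 1971 in 4T1, and its part in the clock gene levels was not tested.

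Some member counts can hold reads of overlapping genes, since the strand setting of the counting is not given in the sources used here. Exons of Nr1d1 share 263 bases (8.55% of its exon length) with Thra on the other strand, those of Dbp 539 bases (18%) with Sphk2 and those of Cry2 295 bases (4.67%) with D930015M05Rik. Thra averaged 38.8 CPM in HC11 DOX, 38.3 with DIP and 28.4 in 4T1, and Sphk2 33.6, 52.7 and 21.2 CPM in the same order. D930015M05Rik stayed at or below 1.11 CPM in every library. Reads from these genes and the members cannot be told apart where they overlap.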

How the data were processed

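Total RNA was sequenced after ribosomal RNA depletion, per the labels' protocols. Each library has 1 deposited file of raw counts by gene. The submitters' processing notes name fastp 0.23.2, featureCounts 2.0.1 and GRCm39. The aligner is not given in the sources used here, nor is the strand setting. Cell line and treatment labels gave the groups. Libraries are numbered in series order, as names that pair nothing, and p-values measure only the spread between libraries, which may be technical.

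Symbols and exon lengths came from GENCODE vM21 (GRCm38), a build other than that of the counts, and promoters from RefSeq. Each comparison was fitted on its 2 groups in edgeR 4.0.16 (R 4.3.3) with filterByExpr, TMM factors, robust glmQLFit and glmQLFTest, with Benjamini-Hochberg adjustment over all genes tested and calls under 0.05. For CPM the TMM factors came from all 28 libraries together, and the prior count on the log2 scale was 2. Alternatives were DESeq2 1.42.0, limma 3.58.1 voom, other factors, no filter, 1 fit of all groups, and each library left out. The procedure was run on simulated data with few changed genes and no libraries set apart. That setting is unlike these data, so nothing is concluded from it. Permutations numbered 100000 where a relation had 10 libraries.

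Members and lists were chosen with earlier results of these data known. Named are all members, lists of up to 4 genes whole, the 3 called genes with the largest change of each other list outside the markers, and the 5 genes most like Arntl, Nr1d1, Dbp and Per1. Single results that this rule would name are left out where they are not reported here. Leaving out DIP libraries 8 and 10, the sets used for relations, and the values of GC content and length were added after seeing the data.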

Additional observations from a re-analysis of the deposited data

Results flagged for a closer look

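Clock in HC11 DOX library 5 was flagged as a sample far from the others of its group, at 25.7 CPM against 78.3 to 132 in the other 9 libraries. Nr1d2 was flagged in the same library, at 23.1 CPM against 45.1 to 72.6. Of 30 groups of libraries looked at, 10 members in 3 groups, 2 were flagged, and chance flags about 1 in 20. Of the other 8 members, Cry1 was above the rest of the group in this library, at 21.5 CPM, and the others lay within its range. The library was also the one in which GC-rich genes stood high (Spearman's rho of 0.57 between deviation and GC content), and the part of base composition in these values was not tested.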

How the results depend on the processing

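The count of members called stayed at 5 to 7 for DIP over 28 alternatives, at 8 to 9 for 4T1 against HC11 DOX over 25 and at 10 for 4T1 against DIP over 26. The calls and directions of Per1, Per2, Arntl, Cry1 and Cry2 with DIP and of all members called in 4T1 held under every alternative run. Nr1d1 with DIP lost its call in 11 of 28 alternatives, with a log2 fold change of 0.67 in limma voom, 1.02 without the filter and 0.59 to 1.18 when 1 library was left out, and 0.06 without DIP libraries 8 and 10. The lowest of these came without DIP library 10 (0.59, adjusted p = 0.173) and library 8 (0.78, adjusted p = 0.115). Leaving out HC11 DOX library 1, 2, 7, 8, 9 or 10 also ended the call. Nr1d2 with DIP gained a call with all 3 groups in 1 fit (0.48) and without DIP library 6 (0.55). Values close to 0 changed sign. Dbp with DIP ranged from -0.01 to 0.34 when 1 library was left out, with -0.01 and -0.00 without HC11 DOX libraries 8 and 10. Cry2 in 4T1 against HC11 DOX was -0.02 with upper quartile factors, -0.20 with library totals, and -0.02, -0.01 and -0.00 without HC11 DOX library 7, HC11 DOX library 9 and 4T1 library 7. With library totals, which move the median of all genes to -0.24 in that comparison and to -0.34 against DIP, Arntl was called lower in the former (-0.43). With the 2 farthest libraries left out, r over DIP libraries became -0.08 for Nr1d1 and Dbp, 0.72 for Arntl and Nr1d1 and -0.03 for Per1 and Tsc22d3, and the cause was not tested. Of 9 relations planned, 2 were not run for want of 6 libraries in a set. No paired analysis was possible because the labels give no replicate numbers. At 3 counts of the total a library could show 0.0135 to 0.0224 CPM, far below every member.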
